A study of Mus musculus with 4 samples.

Results

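The genes described here are 10 of the 32286 genes counted in the 4 libraries: *Krit1*, *Ccm2* and *Pdcd10*, which encode the 3 proteins of the cerebral cavernous malformation (CCM) complex, *Heg1*, *Klf2*, *Klf4*, *Nos3*, *Adamts4*, *Adamts5* and *Piezo1*. They were chosen by name as genes of cavernoma signalling and of the endothelial response to shear. No measured value set the choice, but earlier results of these data were known when it was made. Each symbol named 1 row in every library. Single-cell RNA was measured in microvascular fragments from the cerebra of 3-month-old mice, captured with PECAM1 beads and dissociated with collagenase II, collagenase IV and TrypLE, with 1 10x Genomics 3′ library per mouse. The 2 *Angpt2*-KO mice (KO1, female, and KO2, male) were constitutive *Angpt2*-/- animals, in which a floxed exon 4 had been deleted by Pgk-Cre, so exon 4 was missing from every cell type and throughout development, while the rest of the gene could still be transcribed. The 2 controls (WT1, female, and WT2, male) were *Angpt2*+/+ littermates, and all 4 were on the C57BL6/J background. Effects of the deletion in endothelial cells (ECs) and in other cells cannot be told apart in this model. The study describes 2 independent experiments and the labels number the mice 1 and 2 in each genotype, with the same sex at each number, but no source used here states that the number is the experiment. If the number is the experiment, experiment and sex cannot be told apart. Where KO mice are compared with WT mice, the p-values measure the spread between 2 mice of a genotype.

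HEG1 is a transmembrane protein that anchors the CCM complex of KRIT1, CCM2 and PDCD10 at the endothelial surface. The complex restrains the kinase MEKK3, which acts through ERK5 and MEF2 factors on *Klf2* and *Klf4*, and loss of any of the 3 CCM genes in brain endothelium causes cavernous malformations in which both KLFs and the versican-cleaving proteases ADAMTS4 and ADAMTS5 are raised. Laminar shear raises the same KLFs through the same kinases, NOS3 (endothelial nitric oxide synthase) is a KLF2 target, and PIEZO1 is an ion channel that senses stretch and flow. *Klf2* and *Klf4* are also induced within minutes when tissue is dissociated, together with immediate early genes such as *Fos* and *Junb*, so their levels are given beside each other.

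Cells with over 500 genes and under 10% mitochondrial UMIs (unique molecular identifiers, each standing for 1 captured transcript) numbered 4043 and 5742 in the WT mice and 2900 and 5314 in the KO mice, with 31753395 to 42903731 UMIs per library. Of these 17999 cells, 14152 were ECs by their markers (*Cdh5*, *Cldn5*, *Flt1*, *Kdr*, *Pecam1*, *Tek* and *Tie1*). Clusters named from zone markers held 189 to 795 arterial, 677 to 2283 capillary and 35 to 369 venous ECs per mouse, and 1 EC cluster with venous and capillary markers stayed unnamed. One of the clusters taken as capillary had no capillary marker among its 10 leading genes. The other, with a median of 2964 UMIs per cell, had 1 such marker and was led by *Gm26917*, *Lars2* and *Gm42418*. The angiogenic cluster, led by *Apln* and *Esm1*, held 34 and 31 cells in the WT mice and 827 and 850 in the KO mice. Between any 2 libraries, 0 to 13 cell barcodes were shared. *Ttr*, a choroid plexus transcript, was found in 93.4% or more of the cells of every EC cluster in the WT libraries, in 35.7% to 42.6% in KO1 and in 65.5% to 70.1% in KO2, so free RNA differed between libraries. *Angpt2* itself read 10.7 and 9.93 CPM (UMIs of a gene per 1000000 UMIs of the group) in the ECs of WT1 and WT2 and 65.4 and 41.0 CPM in those of KO1 and KO2. The 3′ end that these libraries count is not the deleted exon, so this level does not check the labels. *Ttr* was among the 10 leading genes of both capillary clusters. It read 1056 to 1482 CPM there in the WT mice and 140 to 497 CPM in the KO mice. In the venous cluster it read 281 (WT1), 204 (WT2), 26.8 (KO1) and 122 CPM (KO2). The capillary clusters, shallow and high in this transcript, are the baseline of every comparison over capillary ECs below.

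*Apln*-positive ECs were those with at least 1 *Apln* UMI, 38 and 64 in the WT mice and 392 and 308 in the KO mice, and the arterial, capillary and venous groups hold no such cell. *Apln* marks tip cells of sprouting vessels. They were 1.18% of the ECs of WT1, 1.36% of WT2, 18.8% of KO1 and 7.43% of KO2, against 0.481%, 0.613%, 4.15% and 1.84% of microglia in the same order, a cell type taken to lack the transcript. The median depth in that order was 5421, 4509, 7512 and 3886 UMIs in ECs and 4521, 4051, 6265 and 3490 UMIs in microglia. In the KO mice 76.3% and 61.0% of the *Apln*-positive cells lay in the angiogenic cluster, and in the WT mice 28.9% and 17.2% did. The *Apln*-positive group therefore had a different make-up in the 2 genotypes, which touches every KO against WT value given for it below.

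Levels are CPM of the UMIs summed over the cells of a group in 1 mouse. Tests used edgeR's quasi-likelihood F-test (two-sided) on these sums, 2 KO against 2 WT mice, with p-values adjusted by Benjamini-Hochberg over all genes tested, and a gene was called at an adjusted p under 0.05. A log2 fold change is KO over WT unless stated and carries its standard error. In all ECs, 2 of the 10 genes were called, both in the direction of a higher level in the KO mice, beside 6.06% of the 13523 genes tested, 3.9% in that direction and 2.17% in the other. One of them, *Adamts4*, passed the filter on low counts (0.408 CPM in at least 2 of the sums) only through the KO mice, and of the 9 other genes 1 was called, *Adamts5*. Among *Apln*-positive ECs, 4 of 10 were called, 3 higher and 1 lower, beside 10% of 10098 genes, 5.92% higher and 4.08% lower. *Adamts4* and *Adamts5* passed the filter there (4.97 CPM) only through the KO mice, and of the 8 other genes 2 were called, *Heg1* higher and *Klf2* lower. In arterial, capillary and venous ECs edgeR called 0 of the 9, 9 and 8 genes that passed the filter on low counts, beside 0.701%, 1.12% and 0.0388% of all genes. At an unadjusted p under 0.05 the counts were 3, 1 and 1, beside 9.85%, 8.81% and 8.65% of all genes, and DESeq2 called 0, 0 and 1, beside 0.61%, 0.867% and 0.544%. *Adamts4* was left out of all 3 zone tests and *Adamts5* out of the venous one. A gene that passes the filter only through the mice in which it is high had to differ, so for such genes the counts and pooled ratios are given as a description and the test is not read as support.

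**Figure D1:**
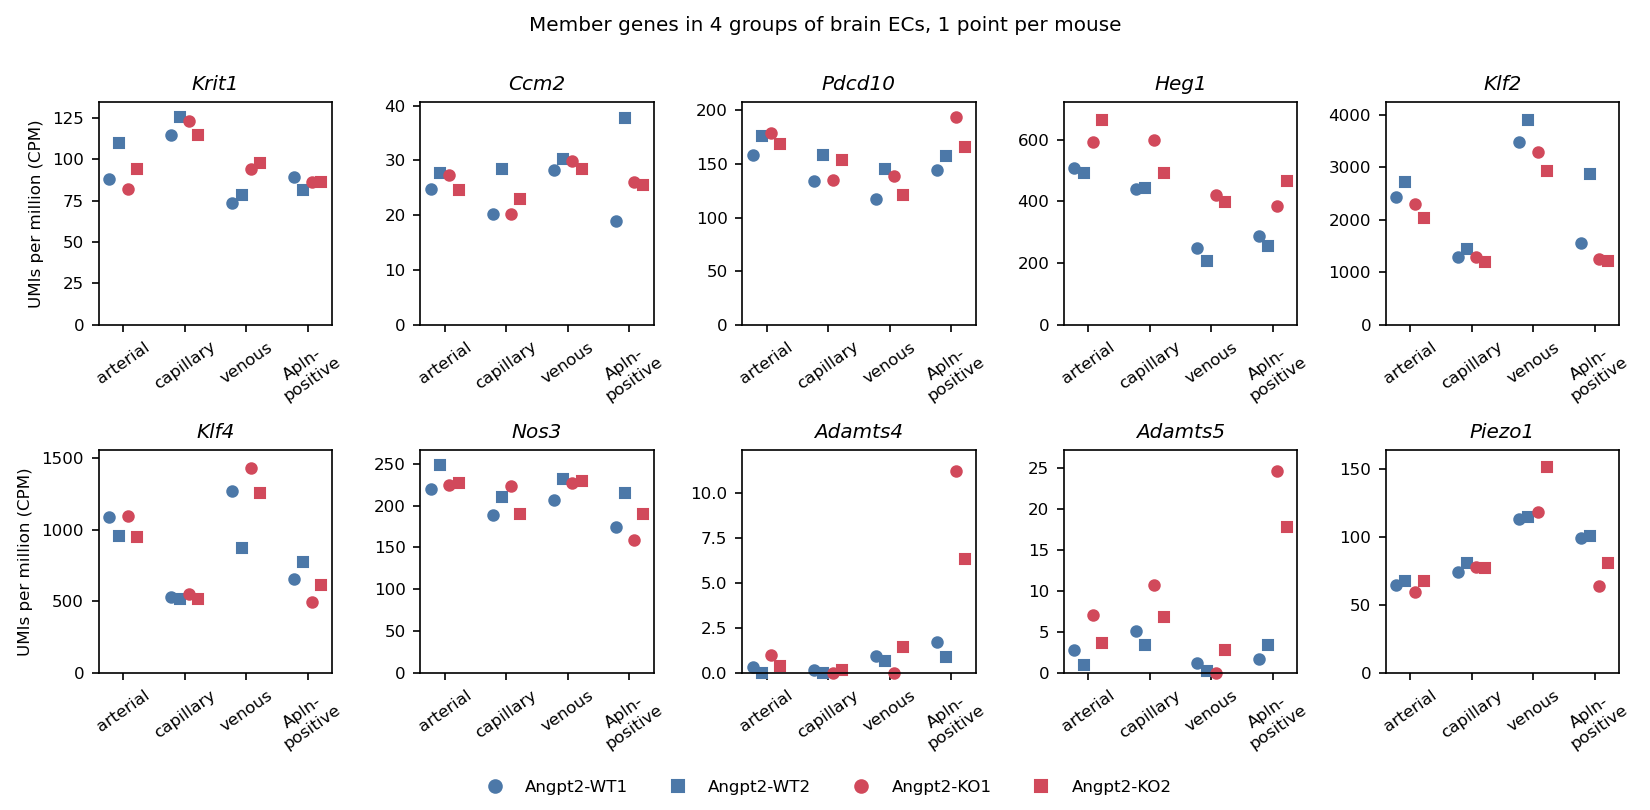
Level of each of the 10 genes (CPM on a linear axis from 0) in arterial, capillary, venous and *Apln*-positive ECs, with 1 point per mouse (blue, *Angpt2*-WT; red, *Angpt2*-KO; circles, replicate 1; squares, replicate 2). *Heg1* is higher in both KO mice than in both WT mice in each of the 4 groups, and *Adamts4* and *Adamts5* stand out in the *Apln*-positive ECs of the KO mice, at 11.2 and 6.30 CPM and at 24.7 and 17.8 CPM.

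Both KO values lay outside the range of the 2 WT values for 6 of the 10 genes in all ECs, beside 50.7% of all genes tested. The counts were 3 of 9 in arterial ECs (41.1%), 3 of 9 in capillary ECs (34%), 4 of 8 in venous ECs (41%) and 7 of 10 in *Apln*-positive ECs (51.9%), with the share of all genes in parentheses. A lack of overlap between 2 and 2 mice was thus common over all genes, and it is given below as a description.

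**Figure D2:**
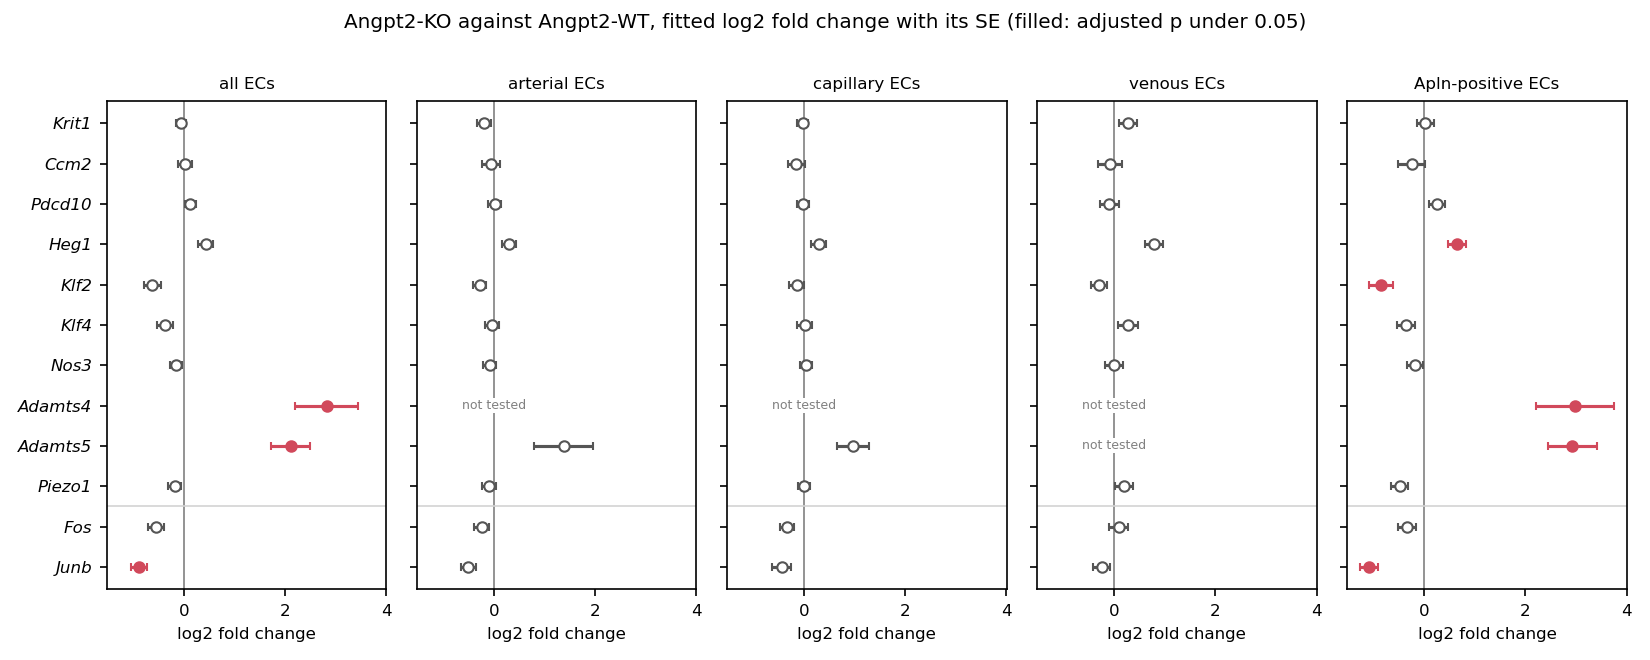
Log2 fold change of *Angpt2*-KO over *Angpt2*-WT from edgeR for the 10 genes and, under the grey line, *Fos* and *Junb*, in 5 EC groups, with bars of 1 standard error and filled points where the adjusted p was under 0.05. *Adamts5* lies above 0 in each of the 4 groups in which it was tested (0.96 to 2.93), and *Klf2* lies below 0 in all 5 groups (-0.15 to -0.85).

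Of the CCM complex and its anchor, *Heg1* read higher in both KO mice than in both WT mice in all 5 groups and was called in *Apln*-positive ECs, and the 3 complex genes were not called in any group. *Heg1* (chr16:33684370-33771576, GRCm38, GENCODE vM21) read 383 (WT1) and 329 CPM (WT2) against 465 (KO1) and 506 CPM (KO2) over all ECs. In venous ECs it read 247 and 206 CPM in the WT mice and 420.4 and 397 CPM in the KO mice. Within the *Apln*-positive ECs it read 286 and 256 CPM in the WT mice and 386 and 467 CPM in the KO mice. Both KO mice were above both WT mice in each of these groups, and also in arterial ECs (508 and 493 against 592 and 664 CPM) and capillary ECs (441 and 444 against 600.2 and 492 CPM). The difference was called in *Apln*-positive ECs only, at a log2 fold change of 0.65 ± 0.18 (edgeR adjusted p = 0.034, n = 2 and 2). It was 0.43 ± 0.15 in all ECs (edgeR adjusted p = 0.15), 0.29 ± 0.13 in arterial (0.50), 0.29 ± 0.15 in capillary (0.65) and 0.79 ± 0.18 in venous ECs (0.17).

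The venous *Heg1* value was the largest of the zones, but the difference of the genotype effect between venous and capillary ECs was not called. It was 0.49 ± 0.15 (edgeR adjusted p = 0.50), and for the 9 genes tested neither this difference nor that between arterial and capillary ECs was called, beside 0.00947% and 0% of all genes. At an unadjusted p under 0.05 edgeR counted 1 of the 9 genes, *Heg1*, for the venous difference and 0 for the arterial one, beside 8.02% and 4.51% of all genes, and DESeq2 called 0 for both. The venous groups were the smallest, with 35 cells in KO1, and in KO2 their median depth was 4834 UMIs against 14894 to 18707 in the other mice. The 7 pericyte markers summed to 354 and 247 CPM in the venous ECs of WT1 and WT2. In KO1 and KO2 they summed to 38.9 and 774 CPM there. Venous groups thus differed in mural RNA between mice, which touches every venous value given for KO2. The venous *Heg1* difference was called by DESeq2 (0.79, adjusted p = 0.0067), and by edgeR without WT1 (0.88, adjusted p = 0.00079). The call in *Apln*-positive ECs was lost without KO1 (0.78, edgeR adjusted p = 0.064), WT2 (0.55, 0.15) or KO2 (0.52, 0.27), and among cells with a low share of immediate early UMIs (0.21, 0.75).

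*Krit1* (chr5:3803184-3845564) encodes the CCM protein that binds HEG1 and RAP1. It read 94.95 and 103 CPM in the ECs of the WT mice and 94.5 and 97.6 CPM in those of the KO mice, ranges that overlap. In venous ECs it read 73.9 and 78.4 CPM in the WT mice and 94.3 and 97.9 CPM in the KO mice, which do not overlap, at a log2 fold change of 0.27 ± 0.18 (edgeR adjusted p = 0.68). *Ccm2* (chr11:6546887-6596744), the scaffold that binds MEKK3, read 23.2 and 30.4 against 28.8 and 26.7 CPM over all ECs, with a log2 fold change of 0.03 ± 0.14 (edgeR adjusted p = 0.94). *Pdcd10* (chr3:75516490-75556856), which links the complex to STK kinases, read 140.4 and 166 against 176 and 162 CPM, with 0.13 ± 0.11 (edgeR adjusted p = 0.62). Over the 5 groups the fold changes of these 3 genes ran from -0.25 (*Ccm2*, *Apln*-positive) to 0.27 (*Krit1*, venous), and every adjusted p was at least 0.41. Only *Krit1* in venous ECs and *Pdcd10* in *Apln*-positive ECs (144 and 158 against 194 and 166 CPM) had KO values outside the WT range.

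The 250 bases upstream of the start of *Klf2*, *Klf4*, *Fos* and *Junb* are shown because the levels of these 4 genes ran in parallel across the EC zones. They are from RefSeq on GRCm38.p6, each read 5′ to 3′ on the strand of its gene, at chr8:72318812-72319061 (plus strand) for *Klf2*, chr4:55532476-55532725 (minus) for *Klf4*, chr12:85473640-85473889 (plus) for *Fos* and chr8:84978749-84978998 (minus) for *Junb*. Capitals mark TGACG, the core of sites for CREB, ATF and related factors, on either strand, and in *Klf2* also a match to the MEF2 consensus.
Klf2: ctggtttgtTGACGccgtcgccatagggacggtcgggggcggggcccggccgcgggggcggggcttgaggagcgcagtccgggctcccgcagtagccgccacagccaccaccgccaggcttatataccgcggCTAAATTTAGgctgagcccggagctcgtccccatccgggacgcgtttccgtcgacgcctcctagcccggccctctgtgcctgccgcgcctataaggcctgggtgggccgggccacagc
Klf4: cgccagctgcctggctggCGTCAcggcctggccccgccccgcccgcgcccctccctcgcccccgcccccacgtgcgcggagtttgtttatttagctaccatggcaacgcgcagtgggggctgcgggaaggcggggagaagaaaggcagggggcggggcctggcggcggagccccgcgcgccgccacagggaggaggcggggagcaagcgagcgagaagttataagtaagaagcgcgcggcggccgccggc
Fos: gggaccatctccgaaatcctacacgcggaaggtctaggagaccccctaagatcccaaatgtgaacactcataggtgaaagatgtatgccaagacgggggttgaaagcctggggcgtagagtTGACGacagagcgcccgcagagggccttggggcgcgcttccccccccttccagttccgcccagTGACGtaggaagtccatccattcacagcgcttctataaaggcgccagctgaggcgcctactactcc
Junb: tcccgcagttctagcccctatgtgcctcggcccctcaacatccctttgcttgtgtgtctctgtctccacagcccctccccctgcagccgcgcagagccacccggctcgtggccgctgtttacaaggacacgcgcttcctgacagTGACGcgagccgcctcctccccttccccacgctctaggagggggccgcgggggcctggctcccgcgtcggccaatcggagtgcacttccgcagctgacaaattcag
The TGACG core was found in all 4 windows, at 1 position in *Klf2*, *Klf4* and *Junb* and at 2 in *Fos*, and in 17.8% of the 32851 promoter windows of this length in the table. The MEF2 consensus was found in *Klf2* alone of the 4, at -118, and in 2.92% of all windows. The serum response factor CArG box, held by 1.47% of all windows, was in none of the 4. Bases further upstream were not searched, so a site beyond these 250 bases would be missed. Neither TGACG nor the MEF2 consensus was found in the windows of *Krit1*, *Ccm2*, *Pdcd10*, *Heg1* and *Piezo1*. CACCC, the core bound by KLFs, was found in 5 places in *Heg1*, 2 in *Ccm2* and 1 each in *Piezo1*, *Klf2* and *Junb*, and in 52% of all windows. Both strands were searched and no match overlapped another, and a match is a string of letters, not a measured binding site. RefSeq windows were found for 7 of the 10 genes, and none for *Nos3*, *Adamts4* and *Adamts5*.

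*Klf2* read lower in the KO mice than in the WT mice, most so when all ECs or *Apln*-positive ECs were summed and least so in capillary ECs. Over all ECs *Klf2* (chr8:72319033-72321656) read 2121 (WT1) and 2603 CPM (WT2) against 1592 (KO1) and 1503 CPM (KO2), a mean of 2362 ± 341 (SD, n = 2) against 1548 ± 63.1 (SD, n = 2). The log2 fold change was -0.63 ± 0.17 and missed the threshold (edgeR adjusted p = 0.073). In capillary ECs it read 1291 and 1451 against 1286 and 1203 CPM, and the difference was -0.15 ± 0.15 (edgeR adjusted p = 0.88). The KO values were below the WT values in every one of the 5 groups, but in capillary ECs KO1 and WT1 were nearly equal. Arterial ECs gave 2427 and 2722 against 2305 and 2034 CPM (-0.28 ± 0.13, edgeR adjusted p = 0.50). Venous ECs gave 3482 and 3904 against 3296 and 2929 CPM (-0.31 ± 0.16, edgeR adjusted p = 0.62), and without WT1 this difference was called (-0.43, edgeR adjusted p = 0.0040). Over all ECs DESeq2 called *Klf2* lower (-0.62, adjusted p = 6.7e-05), as did edgeR without WT1 (-0.74, adjusted p = 0.038).

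In *Apln*-positive ECs *Klf2* was called lower. It read 1562 (WT1) and 2872 CPM (WT2) against 1250.1 (KO1) and 1214 CPM (KO2), at a log2 fold change of -0.85 ± 0.24 (edgeR adjusted p = 0.036). The 2 KO mice differed little and the 2 WT mice differed widely. The call was lost without WT2 (-0.37, edgeR adjusted p = 0.34), KO1 (-0.87, 0.059) or KO2 (-0.81, 0.076). In the angiogenic cluster, which is not set by a count of *Apln* UMIs alone, *Klf2* read 1065 and 1040 CPM in the WT mice and 1198 and 1049 CPM in the KO mice, a log2 fold change of 0.084 (edgeR adjusted p = 0.89). The part of the unequal make-up of the *Apln*-positive group in its *Klf2* value was not tested further. Angiogenic ECs, in which *Klf2* was lowest, were 827 of the 2088 ECs of KO1 and 850 of the 4145 of KO2, and with angiogenic and *Apln*-positive cells left out the *Klf2* fold change over all other ECs was -0.41 (edgeR adjusted p = 0.34).

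*Klf4* (chr4:55527143-55532466) was called in no group. Over all ECs it read 943 (WT1) and 809 CPM (WT2) against 677 (KO1) and 698 CPM (KO2) (-0.37 ± 0.16, edgeR adjusted p = 0.24). In arterial ECs it read 1091 and 958 against 1096 and 951 CPM, and in capillary ECs 531 and 517 against 553 and 514 CPM. The WT and KO ranges overlapped in each zone, and the fold changes there were -0.04, 0.01 and, in venous ECs, 0.27, the last of which was called without WT1 (0.51, edgeR adjusted p = 0.017). Among *Apln*-positive ECs *Klf4* read 657 and 771 against 497 and 616 CPM (-0.37 ± 0.18, edgeR adjusted p = 0.25).

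*Nos3* (chr5:24364810-24384474) had even levels across mice and zones. It read 210.8 (WT1) and 232 CPM (WT2) against 197 (KO1) and 205 CPM (KO2) over all ECs (-0.16 ± 0.11, edgeR adjusted p = 0.51). The lowest value of any mouse in the arterial, capillary and venous groups was 189 CPM and the highest 249 CPM. Within the *Apln*-positive ECs it read 175 and 215 against 159 and 190.3 CPM (-0.18 ± 0.17, edgeR adjusted p = 0.59), ranges that overlap.

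*Fos* and *Junb* read lower in both KO mice as well. *Fos*, a subunit of the AP-1 factor, read 1033 and 898 CPM in the ECs of the WT mice and 699 and 641 CPM in those of the KO mice (-0.55 ± 0.16, edgeR adjusted p = 0.088). *Junb*, its partner, read 1184 and 1045 against 568 and 653 CPM and was called lower (-0.89 ± 0.16, edgeR adjusted p = 0.017), a call lost without KO1 (-0.78, edgeR adjusted p = 0.073). In *Apln*-positive ECs *Junb* read 1358 and 1237 against 577 and 643 CPM (-1.10 ± 0.18, edgeR adjusted p = 0.0013), while *Fos* read 742 and 988 against 722 and 646 CPM (-0.35 ± 0.18, edgeR adjusted p = 0.30). Neither was called in a zone, with fold changes in arterial, capillary and venous ECs of -0.25, -0.34 and 0.09 for *Fos* and -0.51, -0.44 and -0.25 for *Junb*. The 24 listed immediate early genes, which hold no KLF, took 1.24% and 1.16% of the EC UMIs of WT1 and WT2 and 0.792% and 0.838% of those of KO1 and KO2. Of them, 5 were called lower in all ECs and 0 higher, beside 2.17% and 3.9% of all genes. Their median log2 fold change was -0.46 beside -0.02 over all genes. *Ier3* (-1.33), *Gadd45g* (-1.01) and *Zfp36* (-0.82) were called besides *Junb*.

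Among cells with few immediate early UMIs the genotype difference in *Klf2* was small. In the ECs at or below the median immediate early share (0.497% of a cell's UMIs), *Klf2* read 890.1 (WT1) and 990 CPM (WT2) against 928 (KO1) and 822 CPM (KO2). Its fold change there was -0.11 (edgeR adjusted p = 0.74). In the ECs above that share the fold change of *Klf2* was -0.51 (edgeR adjusted p = 0.21). The low side held 42.9% and 46.9% of the ECs of WT1 and WT2 and 58.4% and 54.7% of those of KO1 and KO2. How much of the lower *Klf2* in the KO mice comes from the response to dissociation and how much from the tissue cannot be told apart here, because both would be read in the same UMIs.

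Between zones both KLFs were far higher in arterial and venous than in capillary ECs, beside *Fos* and *Junb*. In venous over capillary ECs the log2 differences were 1.31 ± 0.07 for *Klf2*, 1.10 ± 0.08 for *Klf4*, 2.18 ± 0.09 for *Fos* and 2.14 ± 0.08 for *Junb*, each called by edgeR with mouse as a term (adjusted p from 4.3e-24 to 2.8e-15). In arterial over capillary ECs they were 0.80 ± 0.07, 0.89 ± 0.08, 1.78 ± 0.08 and 1.27 ± 0.08 in that order (edgeR adjusted p from 8.4e-20 to 1.5e-11). *Nos3* was not called, at 0.08 ± 0.07 (edgeR adjusted p = 0.39) and 0.13 ± 0.07 (0.15). The zones were clustered without these genes, and 30.6% of all genes were called between arterial and capillary (14.5% higher and 16.1% lower in arterial) and 40.7% between venous and capillary ECs (19.8% higher and 20.9% lower in venous). Of the 24 immediate early genes, 21 were called higher in arterial and 24 in venous ECs, with medians of 0.95 and 1.29 beside -0.02 and -0.0042 over all genes.

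The zone difference of the KLFs shrank when cells with few immediate early UMIs were compared. Venous over capillary, *Klf2* was then 0.37 (edgeR adjusted p = 0.0078) and *Klf4* turned to -0.31 (edgeR adjusted p = 0.14). Few venous cells stand behind these values. The low side held 16, 9, 47 and 21 venous ECs in WT1, KO1, WT2 and KO2, with 35, 34, 120 and 43 *Klf4* UMIs. Arterial over capillary, *Klf2* was 0.45 and *Klf4* 0.44, both still called. Venous ECs were also the deepest, with a median of 17408 and 18707 UMIs per cell in the WT mice against 3026 and 3890 in capillary ECs.

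**Figure D3:**
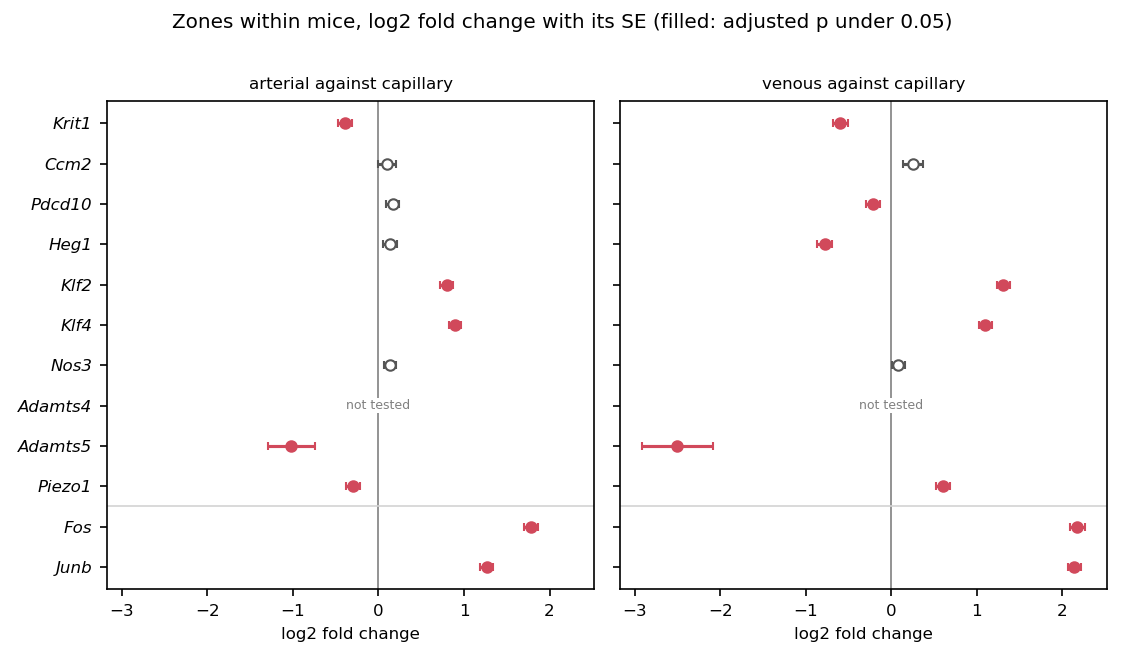
Log2 fold change of arterial over capillary ECs (left) and of venous over capillary ECs (right) within the 4 mice, from edgeR, for the 10 genes and, under the grey line, *Fos* and *Junb*, with bars of 1 standard error and filled points where the adjusted p was under 0.05. *Klf2* and *Klf4* lie to the right of 0 in both panels with *Fos* and *Junb*, while *Nos3* lies near 0 (0.13 and 0.08).

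Within each zone, cells were ordered by their share of immediate early UMIs and cut into 4 equal bins in each mouse. From the lowest to the highest bin *Klf2* went from a mean of 656 ± 51.0 (SD, n = 4 mice) to 2325 ± 221 CPM in capillary ECs, from 1136 ± 47.2 to 3830 ± 418 CPM in arterial ECs and from 1606 ± 253 to 4656 ± 813 CPM in venous ECs. *Klf4* went from 269 ± 4.90 to 934 ± 46.8 CPM in capillary, from 450.1 ± 34.1 to 1747 ± 194 CPM in arterial and from 441 ± 63.3 to 1786 ± 319 CPM in venous ECs. The ranges of the lowest and the highest bin did not overlap for either gene in any zone. *Nos3* read 200.3 ± 19.6 and 195 ± 19.6 CPM in the lowest and highest bin of capillary ECs and 207 ± 50.1 and 220.1 ± 31.4 CPM in those of venous ECs. In arterial ECs it read 199.7 ± 34.4 and 272 ± 30.5 CPM and was higher in the highest than in the lowest bin in each of the 4 mice, though by little in KO1 (245 and 249 CPM). *Heg1* went from 565 ± 76.9 to 360.0 ± 93.8 CPM in capillary ECs. In the lowest bins both KLFs kept a level of 269 CPM or more on average. Those bins are not matched between zones, since their median immediate early share was 0.103% to 0.109% of UMIs in capillary, 0.230% to 0.292% in arterial and 0.172% to 0.508% in venous ECs, so their levels are not compared between zones.

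**Figure D4:**
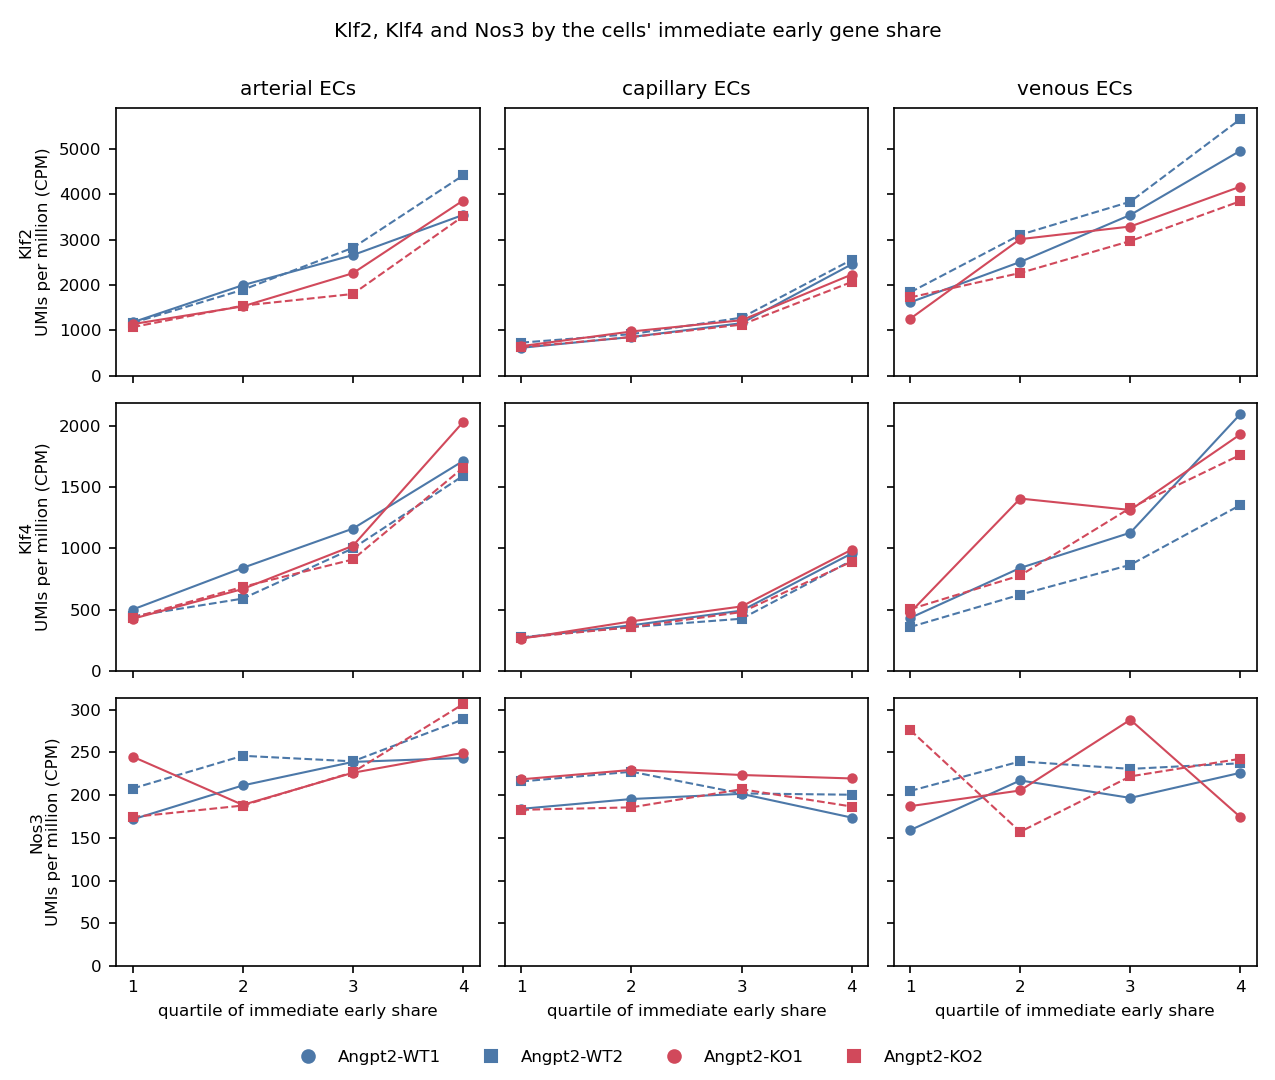
*Klf2*, *Klf4* and *Nos3* (CPM, rows) in 4 bins of cells ordered by their share of immediate early UMIs, lowest bin at the left, in arterial, capillary and venous ECs (columns), with 1 line per mouse (blue, *Angpt2*-WT; red, *Angpt2*-KO). *Klf2* and *Klf4* are higher in the highest than in the lowest bin in every zone and mouse, as in the means of 656 and 2325 CPM for *Klf2* in capillary ECs, while *Nos3* reads 200.3 and 195 CPM in capillary and 199.7 and 272 CPM in arterial ECs.

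Over the 16 sums of 4 EC groups in 4 mice, log2 CPM of *Klf2* correlated with that of *Fos* at r = 0.87 and of *Junb* at r = 0.84, and *Klf4* did so at 0.91 and 0.79. *Nos3* correlated with *Fos* at 0.44, with *Junb* at 0.27, with *Klf2* at 0.67 and with *Klf4* at 0.64. These are descriptions, since the 16 sums share mice, libraries and depth.

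Of the proteases, both had more transcripts in the KO mice, where these lay mostly in the angiogenic ECs. Over all ECs *Adamts5* was called and *Adamts4* passed the filter only through the KO mice. *Adamts5* (chr16:85856173-85901828) had 94 and 59 UMIs in the ECs of WT1 and WT2 and 344 and 172 in those of KO1 and KO2, or 3.57, 1.74, 15.2 and 7.83 CPM. Its log2 fold change was 2.11 ± 0.39 (edgeR adjusted p = 0.017), and the pooled KO level was 4.54 times the pooled WT level (95% exact interval 3.79 to 5.48, counting error only). *Adamts4* (chr1:171250421-171260637) had 9 and 12 UMIs in the WT mice and 90 and 24 in the KO mice, or 0.342, 0.355, 3.97 and 1.09 CPM. Its pooled ratio was 7.31 (4.56 to 12.3), and its call (2.83 ± 0.62, edgeR adjusted p = 0.034) is a description, since both WT values lay below the filter. Both KO mice were above both WT mice for each gene, and KO1 was the higher of the KO mice for each.

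Both calls in all ECs rested on particular libraries. Without KO1 the *Adamts4* fold change was 1.62 (edgeR adjusted p = 0.14), without WT1 2.84 (0.13) and without WT2 2.83 (0.16), and with cells that carried 3 or more UMIs of mural, microglial or oligodendrocyte markers left out it was 2.32 (edgeR adjusted p = 0.051). *Adamts5* lost its call without WT2 (1.64, edgeR adjusted p = 0.067) and with angiogenic and *Apln*-positive cells left out (1.14, edgeR adjusted p = 0.21).

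Among *Apln*-positive ECs *Adamts4* had 1 and 1 UMIs in the WT mice and 83 and 18 in the KO mice, or 1.71, 0.858, 11.2 and 6.30 CPM, a pooled ratio of 8.60 (2.32 to 72.0) on 2 WT counts. *Adamts5* had 1 and 4 UMIs in the WT mice and 183 and 51 in the KO mice, or 1.71, 3.43, 24.7 and 17.8 CPM, a pooled ratio of 7.97 (3.37 to 24.8). edgeR called both, at 2.98 ± 0.77 (adjusted p = 0.027) and 2.93 ± 0.49 (adjusted p = 0.0016), but with the WT mice of both genes below the filter these calls support nothing beyond the counts, and the values depend on the prior count. The *Adamts4* call was lost with DESeq2 (2.92, adjusted p = 0.22) and without WT2 (2.39, edgeR adjusted p = 0.25), and that of *Adamts5* with at least 2 *Apln* UMIs asked of a cell (1.54, edgeR adjusted p = 0.22). In the angiogenic cluster the WT mice had 0 and 1 UMIs of *Adamts4* and 8 and 4 of *Adamts5*, and *Adamts5* read 20.5 and 12.9 CPM there against 22.6 and 16.7 CPM in the KO mice. The few angiogenic cells of the WT mice thus had *Adamts5* at a level that overlapped that of the KO mice (0.21, edgeR adjusted p = 0.92, pooled ratio 1.20, 0.678 to 2.34).

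Outside these cells the proteases were scarce. Capillary ECs held 34 and 26 UMIs of *Adamts5* in the WT mice and 33 and 45 in the KO mice, or 5.12, 3.44, 10.8 and 6.81 CPM, at a log2 fold change of 0.96 ± 0.32 (edgeR adjusted p = 0.29). Arterial ECs held 18 and 5 against 14 and 10 UMIs, or 2.82, 0.909, 7.08 and 3.67 CPM (1.37 ± 0.57, edgeR adjusted p = 0.42). Both KO values were above both WT values in capillary and arterial ECs, on few counts, and in arterial ECs WT2 lay below the filter. *Adamts4* had at most 2 UMIs per mouse in capillary and in arterial ECs, too few for a comparison. Venous ECs held 8 of its UMIs in the WT mice and 2 in the KO mice, a pooled ratio of 1.31 (0.136 to 6.57). Over all ECs without *Apln*, angiogenic ones included, *Adamts4* had 19 UMIs in the WT and 13 in the KO mice. That pooled ratio was 1.16 (0.528 to 2.48), so among ECs its excess in the KO mice was seen in the *Apln*-positive cells. For *Adamts5* the ratio in ECs without *Apln* was 3.24 (2.64 to 3.98).

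Within the KO mice, where the comparison stays inside a library, *Adamts5* was higher in the angiogenic than in the capillary ECs, by 1.13 ± 0.20 (edgeR adjusted p = 1.1e-06). *Adamts4* had 103 UMIs against 1, a ratio of 55.4 with a counting interval of 9.73 to 2211, and passed the filter only through the angiogenic ECs, so its call is a description. Of all genes 20.2% were called, 8.05% higher and 12.1% lower. edgeR called 4 of the 10 genes here, the other 2 being *Krit1* (-0.41 ± 0.13, adjusted p = 0.017) and *Piezo1* (-0.45 ± 0.13, adjusted p = 0.0082), and DESeq2 called 0, beside 2.99% of all genes. *Ccm2* (0.31 ± 0.16, edgeR adjusted p = 0.14), *Pdcd10* (0.25 ± 0.14, 0.19), *Heg1* (-0.26 ± 0.15, 0.21) and *Nos3* (-0.27 ± 0.14, 0.14) were not called. The KLFs were not called higher or lower in the angiogenic cluster by edgeR (*Klf2* -0.20 ± 0.16, adjusted p = 0.41, and *Klf4* -0.38 ± 0.15, adjusted p = 0.052), while *Fos* (0.76) and *Junb* (0.52) were called higher.

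*Apln*-positive against all other ECs of the KO mice gave 6 called genes of 10, beside 24.2% of all genes, 13.8% higher and 10.4% lower. *Adamts4* had 101 UMIs against 13 in the other ECs, a pooled ratio of 26.0 (14.5 to 50.5), and passed the filter only through the *Apln*-positive cells, so its call is again a description. *Adamts5* (1.33 ± 0.15, edgeR adjusted p = 2.1e-08) was higher, and *Klf2* (-0.42 ± 0.09, 0.00039), *Klf4* (-0.41 ± 0.08, 0.00035), *Nos3* (-0.28 ± 0.08, 0.0067) and *Heg1* (-0.26 ± 0.08, 0.014) were lower. *Krit1* (-0.19 ± 0.08, edgeR adjusted p = 0.080), *Ccm2* (-0.15 ± 0.11, 0.40), *Pdcd10* (0.14 ± 0.08, 0.20), *Piezo1* (-0.14 ± 0.08, 0.25), *Fos* (0.05 ± 0.08, 0.72) and *Junb* (0.01 ± 0.08, 0.95) were not called. The other ECs hold the arterial and venous cells in which the KLFs are high. Against capillary ECs only, *Klf2* was at -0.08 and *Klf4* at -0.01 and neither was called, and 3 of the 10 genes were.

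The protease transcripts were concentrated in few cells. The ECs with an *Adamts4* UMI had a median of 12993 and 18584 UMIs in WT1 and WT2. In KO1 and KO2 it was 29672.5 and 16728 UMIs. All ECs of these mice had medians of 5421, 4509, 7512 and 3886 UMIs in that order. The part of depth in this concentration was not tested. In KO1 the 90 *Adamts4* UMIs lay in 34 cells, of which 30 were in the angiogenic cluster and 29 had *Apln*, and 85 of the UMIs (94.4%) came from that cluster, which held 51.4% of the EC UMIs. The 5 cells with the most held 46 UMIs (51.1%), up to 18 in a cell. In KO2 the 24 UMIs lay in 19 cells, with 18 (75%) in the angiogenic cluster, which held 28.7% of the EC UMIs. *Adamts5* was spread over 209 cells in KO1 and 133 in KO2, with 76.7% and 61.0% of its UMIs in that cluster. Cells with both transcripts numbered 17 in KO1 and 3 in KO2.

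**Figure D5:**
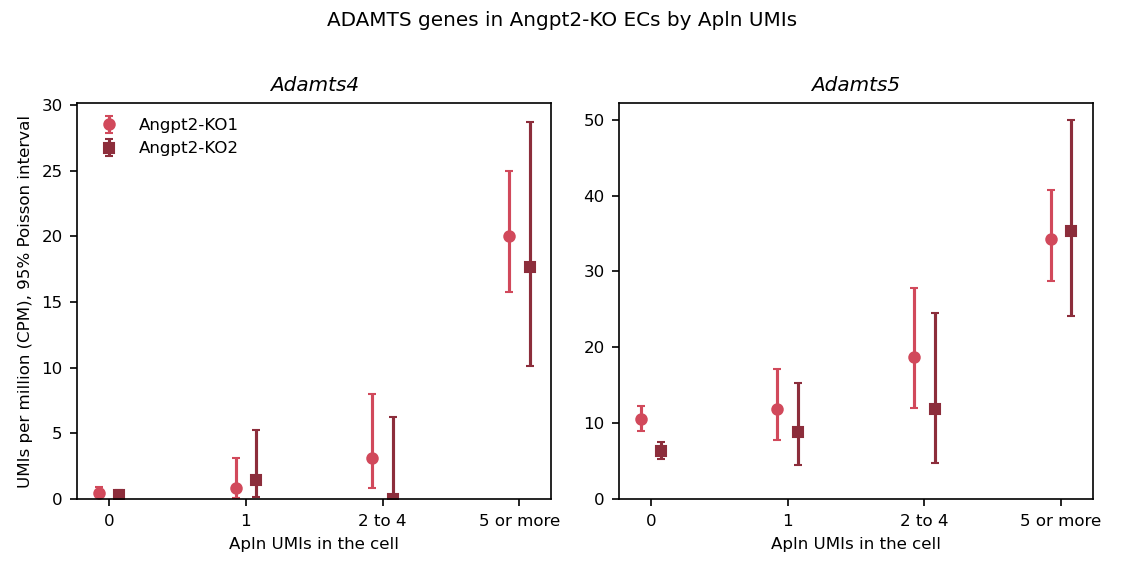
*Adamts4* and *Adamts5* (CPM, linear axes from 0) in the ECs of the 2 *Angpt2*-KO mice with 0, 1, 2 to 4, and 5 or more *Apln* UMIs, with 1 point per mouse and bars of exact 95% Poisson intervals, which cover counting error only. Both genes are highest in the cells with 5 or more *Apln* UMIs, at 20.01 and 17.7 CPM for *Adamts4* and at 34.3 and 35.4 CPM for *Adamts5*.

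In the KO mice the cells with 5 or more *Apln* UMIs had more of the proteases and less of most other members, the KLFs among them. In cells with 0 and with 5 or more *Apln* UMIs, *Adamts4* read 0.459 and 20.01 CPM in KO1 and 0.314 and 17.7 CPM in KO2, and *Adamts5* read 10.5 and 34.3 CPM in KO1 and 6.33 and 35.4 CPM in KO2. *Klf2* read 1759 and 849.9 CPM in KO1 and 1546 and 578 CPM in KO2, *Klf4* 764 and 268 CPM in KO1 and 711 and 284 CPM in KO2, and *Heg1* 504 and 314 CPM in KO1 and 512 and 316 CPM in KO2. *Nos3* (216 and 129 CPM in KO1, 207 and 140 CPM in KO2) and *Piezo1* (72.6 and 55.1, 86.2 and 57.5 CPM) were lower there too, as were *Krit1* and *Ccm2*. *Pdcd10* was not (168 and 208, 162 and 164 CPM). The levels did not run steadily along the bins. In those of 1 and of 2 to 4 UMIs the KLFs stayed near the level of cells without *Apln* in KO2. In KO1 *Klf2* read 1777 and 1511 CPM there, and *Klf4* 827 and 594 CPM. *Adamts4* read 1.46 and 0 CPM in these bins of KO2. The median depth rose along the bins, from 6959 to 18352.5 UMIs in KO1 and from 3793 to 10674.5 in KO2, so a cell with many *Apln* UMIs was also a deep cell, and the part of depth in these values was not tested.

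Mural cells express both proteases in these libraries, so their markers are given beside the counts. By cell type *Adamts5* was highest in smooth muscle, at 80.5 ± 21.7 CPM (SD, n = 4), and *Adamts4* in pericytes, at 8.85 ± 5.86 CPM. Pericytes held 6 *Adamts4* UMIs in the WT mice and 73 in the KO mice, with 2.02 CPM in the lowest mouse and 14.0 in the highest. They numbered 76 and 147 in WT1 and WT2 and 172 and 207 in KO1 and KO2. The genotype difference in pericytes was not tested. The 7 pericyte markers summed to 101.7 to 110.3 CPM in the ECs of all 4 mice against 11280 to 13218 CPM in pericytes, with every one of the 7 above 0 in each mouse. In the ECs with an *Adamts4* UMI they summed to 1999, 742, 811 and 287 CPM in WT1, WT2, KO1 and KO2. The 5 smooth muscle markers summed to 53.2, 25.5, 13.3 and 33.0 CPM in the ECs of the same mice and to 269, 63.9, 44.0 and 111 CPM in their ECs with an *Adamts4* UMI, with *Cnn1* at 0 and the other 4 above 0. Both marker lists were thus higher in the *Adamts4* cells than in all ECs in every mouse. The fit without cells of 3 or more UMIs of mural, microglial or oligodendrocyte markers is given above. Cells with pericyte markers were also left out, with no limit set on smooth muscle markers. Without ECs holding any of the 7 pericyte markers, *Adamts4* kept 4, 3, 75 and 21 UMIs in the same mice, in that order. *Adamts5* then kept 77, 43, 267 and 123 UMIs. With every EC that held a UMI of *Pdgfrb*, *Kcnj8*, *Abcc9* or *Higd1b* left out, *Adamts4* kept 5, 7, 87 and 22 UMIs and *Adamts5* 91, 53, 324 and 154 UMIs in WT1, WT2, KO1 and KO2, or 0.201, 0.220, 4.07 and 1.06 CPM for *Adamts4* and 3.67, 1.67, 15.2 and 7.41 CPM for *Adamts5*.

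*Piezo1* (chr8:122481698-122551329) was not called between genotypes in any group. It read 84.2 and 90.0 CPM in the ECs of the WT mice and 69.8 and 85.5 CPM in those of the KO mice (-0.18 ± 0.12, edgeR adjusted p = 0.48). Within the *Apln*-positive ECs it read 99.4 and 100.3 against 63.9 and 80.5 CPM, without overlap (-0.49 ± 0.18, edgeR adjusted p = 0.11). In venous ECs the KO mice were the higher, at 118 and 151 against 113 and 115 CPM (0.19 ± 0.18, edgeR adjusted p = 0.78). Between zones *Piezo1* was highest in venous ECs, 0.60 ± 0.08 above capillary (edgeR adjusted p = 8.7e-08), and was 0.30 lower in arterial than in capillary ECs (-0.30 ± 0.08, edgeR adjusted p = 0.0041).

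The other genes also differed between zones. *Heg1* was lower in venous than in capillary ECs (-0.78 ± 0.09, edgeR adjusted p = 1.1e-09) and was not called between arterial and capillary ECs (0.14 ± 0.08, edgeR adjusted p = 0.20). *Krit1* was lower in arterial (-0.39 ± 0.08, edgeR adjusted p = 0.00024) and in venous ECs (-0.59 ± 0.09, edgeR adjusted p = 7.3e-07) than in capillary ECs. *Adamts5* was lower in both, at -1.02 ± 0.28 (edgeR adjusted p = 0.0039) and -2.50 ± 0.42 (edgeR adjusted p = 5e-06). *Pdcd10* was lower in venous ECs (-0.21 ± 0.08, edgeR adjusted p = 0.032) and not called in arterial ECs (0.17 ± 0.07, 0.083). *Ccm2* was called in neither (0.10 ± 0.11 in arterial, edgeR adjusted p = 0.49, and 0.25 ± 0.11 in venous ECs, 0.069).

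Ordered by their mean over the 4 mice, *Klf2* was at 3403 ± 406 CPM in venous, 2372 ± 285 in arterial, 2078 ± 293 in unnamed, 1724 ± 781 in *Apln*-positive, 1308 ± 104 in capillary and 1088 ± 73.9 CPM in angiogenic ECs. The venous range lay clear of the arterial one and the capillary range clear of the angiogenic one, and the groups between overlapped. *Heg1* ran from 564 ± 79.6 CPM in arterial to 318 ± 107 CPM in venous ECs, and each neighbour in that order overlapped the next. *Krit1* was highest in capillary ECs (119 ± 5.78 CPM), clear of the angiogenic ECs that came next (102 ± 11.1 CPM). *Nos3* lay between 181 ± 10.4 CPM in angiogenic ECs and 232 ± 7.47 CPM in the unnamed cluster, with overlap between all neighbours, as for *Ccm2* and *Pdcd10*.

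Across the cell types of the libraries, *Nos3* (211 ± 14.9 CPM) and *Heg1* (421 ± 80.1 CPM) were highest in ECs. The next levels, 179.8 ± 26.5 CPM for *Nos3* in the erythrocyte cluster and 384 ± 26.3 CPM for *Heg1* in fenestrated ECs, overlapped those in ECs. The erythrocyte cluster had a median of 12497.5 UMIs per cell, and the endothelial markers scored next after the erythrocyte markers in it. Whether its levels, here and below, are those of red cells was not tested. *Klf2* was at 1955 ± 511 CPM in ECs and 1973 ± 266 CPM in B cells, which overlap. *Klf4* had its highest mean in fenestrated ECs (963 ± 108 CPM), and the erythrocyte cluster (799 ± 138 CPM) and ECs (782 ± 122 CPM) overlapped it. *Piezo1* was highest in fenestrated ECs too (97.3 ± 5.53 CPM), clear of ECs (82.3 ± 8.75 CPM) but not of the erythrocyte cluster (80.4 ± 17.3 CPM). *Krit1*, *Ccm2* and *Pdcd10* had their highest means in B cells, at 124 ± 22.3, 78.5 ± 26.1 and 166 ± 19.9 CPM.

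The genes whose log2 CPM followed each member most closely over the same 16 sums were taken from 6569 genes (6570 for *Adamts4* and *Adamts5*) with a mean of at least 20 CPM. For *Klf2* they were *Slc25a1* (r = 0.97), *Hyal2* (0.96) and the heat shock gene *Hspa1a* (0.95), and for *Klf4* *Rdx* (0.95), *Plekha2* (0.94) and *Rfk* (0.94). For *Heg1* they were *Adgrf5* (0.94), *Utrn* (0.94) and *Podxl* (0.94), for *Piezo1* *Atp2b1* (0.96), *Lratd2* (0.95) and *Mapre2* (0.95), and for *Nos3* *Pradc1* (0.84), *Traf5* (0.83) and *Afap1l2* (0.83). For *Adamts4* they were *2900026A02Rik* (0.93), *Cd93* (0.91) and *Sox4* (0.91), and for *Adamts5* the VEGF co-receptor *Nrp1* (0.94), *Prdm1* (0.94) and *St3gal5* (0.93). For *Krit1* they were *Ptbp2* (0.91), *Ankrd10* (0.90) and *6720427I07Rik* (0.88), for *Ccm2* *Tomm40* (0.90), *Acbd6* (0.88) and *Psme1* (0.88), and for *Pdcd10* *Bccip* (0.95), *Psmd6* (0.94) and *Myl12b* (0.92). Sums of 4 mice and 4 groups are not independent points.

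The rest of the cascade is described by lists of related genes. In all ECs edgeR called 3.9% of all genes higher and 2.17% lower, the shares that stand beside each list count below. The all-EC sums include the angiogenic cluster, with 34 and 31 cells in the WT mice and 827 and 850 in the KO mice. Of the 18 genes of the CCM partners and the MEKK3 to ERK5 cascade, 17 were tested in all ECs and edgeR called 0. Their median log2 fold change was 0.09. At an unadjusted p under 0.05 edgeR counted 5, beside 19.2% of all genes, and DESeq2 called 2, beside 7.37%. In *Apln*-positive ECs 1 was called, beside 10% of all genes, namely *Mef2a*, a MEF2 factor (0.66 ± 0.16, edgeR adjusted p = 0.021). Of the 16 genes of shear sensing, 2 were called higher in all ECs, the stretch channel *Piezo2* and the semaphorin receptor *Plxnd1*, with a list median of 0.13. *Piezo2* had 10 and 3 UMIs in the ECs of WT1 and WT2 and 399 and 100 in those of KO1 and KO2, and passed the filter only through the KO mice. *Plxnd1* read 129.9 and 109 against 306 and 224 CPM (1.12 ± 0.17, edgeR adjusted p = 0.0075).

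Of the 16 genes known to respond to shear or to KLFs, 4 were called higher in all ECs and 0 lower (list median 0.17), namely *Ccn2* (3.11 ± 0.30, edgeR adjusted p = 0.0017), *Angpt2*, *Edn1* (1.16 ± 0.16, edgeR adjusted p = 0.0055) and *Palmd* (0.75 ± 0.16, edgeR adjusted p = 0.030). *Edn1* encodes endothelin, a vasoconstrictor, and read 276 and 219.8 CPM in the WT mice and 580.0 and 544 CPM in the KO mice. Of the 10 genes reported from cavernoma lesions 3 were called higher in all ECs, *Thbs1*, *Bmp6* and *Tlr4*, and *Cd14* was called lower (-1.14 ± 0.27, edgeR adjusted p = 0.049), with a list median of -0.21. *Thbs1*, a secreted matrix protein, had 54 and 37 UMIs in the WT mice and 1333 and 527 in the KO mice, and *Bmp6*, a ligand, 47 and 35 against 501 and 310 UMIs. *Tlr4*, the endotoxin receptor, read 2.96 and 3.02 against 10.7 and 8.24 CPM (1.65 ± 0.20, edgeR adjusted p = 0.0037).

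Of the 11 genes of the nitric oxide pathway 10 were tested in all ECs and 1 was called, *Ddah1* (0.56 ± 0.12, edgeR adjusted p = 0.029), which breaks down an inhibitor of NOS3, with a list median of 0.13. Of the 18 other ADAMTS proteases and their substrates only 6 passed the filter, and *Adamts9* was called higher, at 13.1 and 11.5 against 29.6 and 24.6 CPM (1.12 ± 0.14, edgeR adjusted p = 0.0045), with a list median of -0.15. Of the 12 other KLFs 11 were tested and 2 were called, both lower, *Klf10* (74.7 and 67.3 against 50.1 and 39.4 CPM) and *Klf5*, at 36 and 63 UMIs in the WT mice and 1 and 5 in the KO mice, which passed the filter only through the WT mice, with a list median of -0.04. Of 10 heat shock genes 2 were called lower, *Hspa1a* (-0.94 ± 0.13, edgeR adjusted p = 0.0063) and *Hspa1b* (-0.78 ± 0.11, edgeR adjusted p = 0.0061), with a list median of -0.03. In arterial, capillary and venous ECs edgeR called 1, 2 and 1 of the genes that respond to shear or KLFs. Cavernoma lesion, nitric oxide and other ADAMTS lists each had 0, 1 and 0. The CCM partner, shear sensing, other KLF and heat shock lists had 0 in each zone. Beside them stand 0.701%, 1.12% and 0.0388% of all genes.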

How the data were processed

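Single-cell 3′ RNA was counted in 4 libraries, 1 mouse each. The authors deposited filtered matrices of UMI counts per gene and cell, made with Cell Ranger on mm10 (version 6.1.2 per the labels, 6.1.1 per the file headers), with no normalization. Every value here was computed from those counts.

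Cells with over 500 genes and under 10% mitochondrial UMIs were kept and clustered in Seurat 5.3.0 (2000 variable genes, 50 principal components, resolution 0.2 for all cells and 0.4 for ECs), with the 10 genes and the other listed genes, 145 in all, held out. A cluster was named from its marker list where at least 3 markers were found in 25% of its cells and its 10 leading genes did not go against the name. No doublet caller was run. Instead, ECs with 3 or more UMIs of pericyte, smooth muscle, microglia or oligodendrocyte markers were left out as an alternative. Cells are not replicates, so UMIs were summed per mouse and group and tested in edgeR 4.0.16 (R 4.3.3) with TMM scaling, filterByExpr and the quasi-likelihood F-test, two-sided, with Benjamini-Hochberg adjustment over all genes tested and a threshold of 0.05. KO against WT had genotype as its only term, and comparisons of zones within mice had mouse as a term. Intervals on counts are exact 95% Poisson or binomial ones and cover counting error only.

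By rule all 10 genes, with *Fos* and *Junb*, are covered in every comparison, by their own values or by a count or range. Of each other list up to 4 called genes with the largest fold change are named, and for each of the 10 genes the 3 genes most correlated with it. The genes, lists and tests were chosen with earlier results of these data known. The fit was tested on simulated data with 200 changed genes. Of genes changed 2-fold and 4-fold it recovered 69% and 96% in all ECs (13523 genes) and 55% and 89% in venous ECs (10302 genes).

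Alternatives were DESeq2 1.42.0, its size factors in edgeR, no filter on low counts, each mouse left out (the lone sample then being assumed to vary like the others), the replicate number as a block, cells by immediate early share, another EC resolution (0.8) and another definition of *Apln*-positive cells. Those with a high immediate early share, with a low share for zones, and with the angiogenic cluster in place of *Apln*-positive cells were chosen after seeing the data.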

Additional observations from a re-analysis of the deposited data

How the results depend on the processing

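Of the alternative fold changes of the 10 genes with *Fos* and *Junb*, 1184 kept their direction and side of the threshold, 49 lost and 30 gained a call, 17 untested values moved and 3 reversed. Reversed were *Klf2* in the angiogenic cluster in place of *Apln*-positive cells (0.084), *Junb*, itself 1 of the genes of that share, in *Apln*-positive ECs of low immediate early share (0.057) and *Klf4* in venous over capillary ECs of low share (-0.31). The last rests on 9 to 47 venous cells of low share per mouse. The cause of these reversals was not tested.

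In all ECs, 2 of the 10 genes were called. DESeq2 called 4, beside 7.37% of all genes. With cells holding UMIs of other types left out, or with low or with high immediate early share, edgeR called 1. With angiogenic and *Apln*-positive cells left out it called 0. Leaving out 1 mouse gave 0 to 2 (0 without WT2, 1 without KO1). In *Apln*-positive ECs, 4 were called, against 0 with low immediate early share, 0 in the angiogenic cluster and 0 with at least 2 *Apln* UMIs, and 1 to 4 with 1 mouse left out (1 without KO1 or WT2, 2 without KO2). In capillary ECs the count went from 0 to 1 without the filter. In venous ECs it went from 0 to 1 with DESeq2 or without the filter, to 2 at resolution 0.8, and to 0 to 3 with 1 mouse left out (3 without WT1). The genotype effect in venous minus capillary ECs went from 0 to 2 at resolution 0.8 and to 0 to 1 with 1 mouse left out (1 without KO1). At resolution 0.8 a cluster named venous held 1 and 4 cells of WT1 and WT2 and 127 and 173 cells of KO1 and KO2. Venous calls at that resolution, here and over all genes below, therefore compare groups of different make-up. Of angiogenic against capillary ECs, 4 calls became 0 with DESeq2. Of *Apln*-positive against other ECs, 6 became 3 against capillary ECs only and 2 without the mouse term. Of venous against capillary ECs, 7 became 2 with low immediate early share.

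Over all genes the counts moved further. In all ECs 820 became 1758 without the filter, 410 without WT2 and 175 with angiogenic and *Apln*-positive cells left out. In *Apln*-positive ECs 1010 became 564 with DESeq2 and 96 in the angiogenic cluster. In venous ECs 4 became 56 with DESeq2, 125 without the filter and 672 at resolution 0.8, and 50 to 681 with 1 mouse left out. Arterial calls went from 77 to 219 and capillary calls from 128 to 299 without the filter.

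The replicate number as a block left the calls among the 10 genes at 2 in all ECs, 4 in *Apln*-positive ECs and 0 in each zone. Over all genes the block moved 820 to 1342 in all ECs, 77 to 148 in arterial, 128 to 319 in capillary and 4 to 0 in venous ECs. Its fold changes in all ECs were 2.59 for *Adamts4*, 2.10 for *Adamts5*, 0.43 for *Heg1* and -0.62 for *Klf2*. The study describes 2 independent experiments, and same-numbered mice share a sex, but no source used here states that the number is the experiment. The deviations of same-numbered mice correlated at r = 0.0990, and at -0.13 without sex-linked genes. With 1 difference per genotype this cannot decide whether same-numbered mice were paired, so the number was used as a block in an alternative only.

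With 2 mice per genotype, 35 venous cells in KO1 and 38 *Apln*-positive cells in WT1, small differences could not be detected at this depth.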
